A study of Gallus gallus with 16 samples.

Results

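The 8 arrays described here are the day 35 arrays of a study of chicken duodenum, chosen by and sorted on a measured value, how far the 3′ control probe set of actin read above the 5′ one. They are 8 of the 16 arrays of the series. On 4 of them the difference was over 1 on the log2 scale (LRFI replicates 3 and 4, HRFI replicates 2 and 3), and these are called the over-1 arrays. On the other 4 it was under 1 (LRFI replicates 1 and 2, HRFI replicates 1 and 4), and these are called the under-1 arrays. Each class thus holds 2 arrays of each line.

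The birds came from a chicken population selected in opposite directions for residual feed intake, the feed eaten beyond what growth and body weight predict. LRFI is the low line and HRFI the high line, and each was sampled at day 35 and day 42 with 4 arrays per line and age. The labels name no treatment and give neither the sex nor the number of birds, and nothing in them ties an array to a bird. P-values thus reflect how far these arrays scattered, some of which may be technical. All values are log2 expression levels from Affymetrix chicken arrays, on which several probe sets often report on the same gene, and a level of 1 unit more is a doubling of signal. As a check of the tissue, genes of the enterocyte brush border, such as those for villin and digestive enzymes, had a mean level of 10.94 to 11.61 on the 16 arrays, against 6.91 to 6.97 over all genes.

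Affymetrix arrays carry separate probe sets for the 3′ end, the middle and the 5′ end of a few abundant transcripts. In the standard labelling protocol reverse transcription starts at the poly(A) tail, so that signal at the 5′ end needs an intact transcript and full-length copying. A gap between the 3′ and the 5′ probe set is commonly read as a measure of how complete the labelled RNA was. The same protocol offers bacterial poly(A) transcripts (dap, thr, phe and lys) that are added to the sample before labelling, and biotin-labelled ones (bioB, bioC, bioD and cre) that are added just before hybridisation. The labels do not state which of these were added here. The duodenum is lined by enterocytes, which digest and absorb nutrients at their brush border, above crypts that renew them and a core of immune, vascular and muscle cells.

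The actin values that sorted the arrays are given as a description, with no test. On the under-1 arrays the 3′ minus 5′ difference was 0.21 and 0.22 (LRFI replicates 1 and 2) and 0.26 and 0.29 (HRFI replicates 1 and 4). On the over-1 arrays it was 1.13 and 1.48 (LRFI replicates 3 and 4) and 1.83 and 2.07 (HRFI replicates 2 and 3). The array just inside the threshold thus stood at 1.13 and the array just outside it, among those of day 35, at 0.29. The gap lay mostly at the 5′ end. The 5′ actin level was 10.84 to 12.13 on the over-1 arrays and 13.03 to 13.45 on the under-1 arrays, while the 3′ level was 12.91 to 13.41 against 13.32 to 13.66. At day 42 a single array was over 1, HRFI replicate 4 at 1.20, and the other 7 lay between 0.19 and 0.50.

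Control probe sets that the sorting did not use separated the same arrays for some transcripts and not for others. For EF1A, a translation elongation factor, the 3′ minus 5′ difference was 1.50, 1.59, 2.07 and 2.19 on the over-1 arrays and 0.21 to 0.44 on the under-1 arrays. HRFI day 42 replicate 4 read 1.39 and the other 7 day 42 arrays 0.15 to 0.54. The over-1 arrays were above all others for EF1A, and again the 5′ level carried most of it (11.44 to 12.27 against 13.61 to 13.90). For GAPDH, a glycolytic enzyme, the classes overlapped, with 0.05, 0.26, 0.21 and 0.21 on the over-1 arrays and 0.17, 0.15, 0.31 and 0.13 on the under-1 arrays. The GAPDH difference between the classes was −0.0075 (p = 0.833, two-sided exact permutation within lines, where 36 arrangements allow no p below 0.0556).

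The probe sets of the bacterial poly(A) transcripts also differed in part. The dap difference was 4.19 to 4.53 on the over-1 arrays and 2.54 to 3.02 on the under-1 arrays, and its 5′ level was 4.16 to 4.76 against 6.22 to 7.65. HRFI day 42 replicate 4 read 3.73 for dap, just above the other day 42 arrays (2.55 to 3.57). For thr (3.66 to 3.88 against 2.85 to 3.74), phe (0.40 to 1.19 against 0.23 to 0.50) and lys (0.23 to 0.39 against 0.02 to 0.36) the classes overlapped. The dap, thr and phe transcripts were dimmer at the 3′ end as well, with no overlap between the classes. The 3′ level was 8.50 to 8.95 against 9.21 to 10.19 for dap, 7.44 to 7.75 against 7.96 to 8.78 for thr and 5.74 to 6.06 against 6.79 to 7.11 for phe. The middle and 5′ levels of these 3 transcripts separated the classes too, with thr at 5.69 to 6.04 against 6.53 to 7.50 in the middle and at 3.75 to 4.003 against 4.27 to 5.93 at the 5′ end. For lys the 3′ levels overlapped (6.39 to 6.80 against 6.42 to 7.10). The differences of the hybridisation controls spanned like ranges in both classes, such as 0.55 to 0.66 against 0.47 to 0.62 for bioB and 0.01 to 0.09 against 0.05 to 0.10 for cre.

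**Figure D1:**
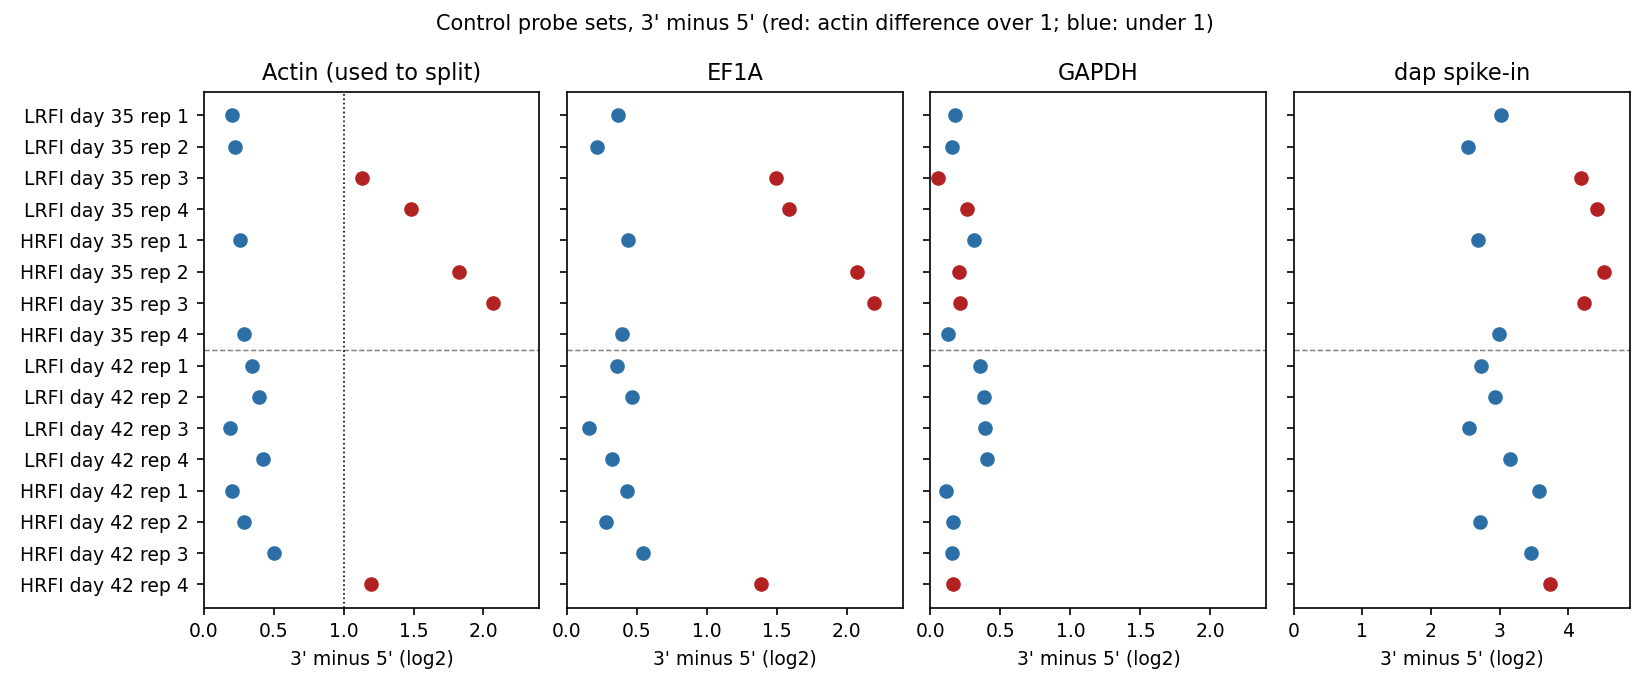
The 3′ minus 5′ difference (log2, horizontal axes) of the actin, EF1A, GAPDH and dap control probe sets on each of the 16 arrays, with arrays over 1 for actin in red, the others in blue and the threshold as a dotted line. The 5 red arrays stand above all blue ones for EF1A and for dap. For GAPDH the lowest array, at 0.05, is red and the other red ones lie among the blue.

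The comparison of the over-1 with the under-1 arrays, with line in the model, asks which probe sets moved with the actin difference. Its p-values compare arrays that were sorted on a measured quantity of the same arrays, so they describe these 8 arrays and no treatment of birds. Of 38439 probe sets, 1110 passed (limma, Benjamini-Hochberg adjusted p under 0.05), which is 2.89%. Of these, 1030 were lower on the over-1 arrays (2.68%) and 80 were higher (0.208%), and 7346 (19.1%) had an unadjusted p under 0.05. The deposited values had all arrays on 1 distribution, which holds the centre of the differences near 0: the median over all probe sets was 0.047, and 60% of them lay above 0. The count depended on which arrays were kept. It was between 442 and 612 when LRFI replicate 1, 2, 3 or 4 or HRFI replicate 1 or 3 was left out, and 1414 and 1321 without HRFI replicate 2 and replicate 4. Lower calls outnumbered higher ones in each of these 8 fits.

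The lower probe sets differed by a median of −0.80, and 304 of them by at least 1. On 990 of the 1030 every over-1 array lay below every under-1 array, as 5.8% of all probe sets did. Taken from the mean of the 7 day 42 arrays under 1, their median was 0.12, 0.23, −0.03 and −0.12 on the under-1 arrays (LRFI replicates 1 and 2, HRFI replicates 1 and 4). It was −0.68, −0.71, −0.72 and −0.93 on the over-1 arrays (LRFI replicates 3 and 4, HRFI replicates 2 and 3). These probe sets were chosen for being lower on the same over-1 arrays, so the separation of the classes was fixed by that choice and is a description. The day 42 arrays had no part in choosing the probe sets, but these 7 were themselves taken for being under 1. HRFI day 42 replicate 4, which was over 1 and left out, had a median of −0.39 by this measure. The under-1 day 35 arrays lay nearer to the 7 than the over-1 arrays did, which is likewise a description. The 80 higher probe sets were fewer and differed by less, with a median of 0.50 and 5 of them by at least 1. HRFI replicate 3, the array with the largest actin difference, also had pancreatic enzyme genes at a mean of 12.53 against 4.86 to 5.63 on the other 7 arrays. These genes were also high, at 10.26, on LRFI day 42 replicate 2, whose actin difference was only 0.40. Without HRFI day 35 replicate 3, 588 probe sets passed, 546 lower and 42 higher.

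**Figure D2:**
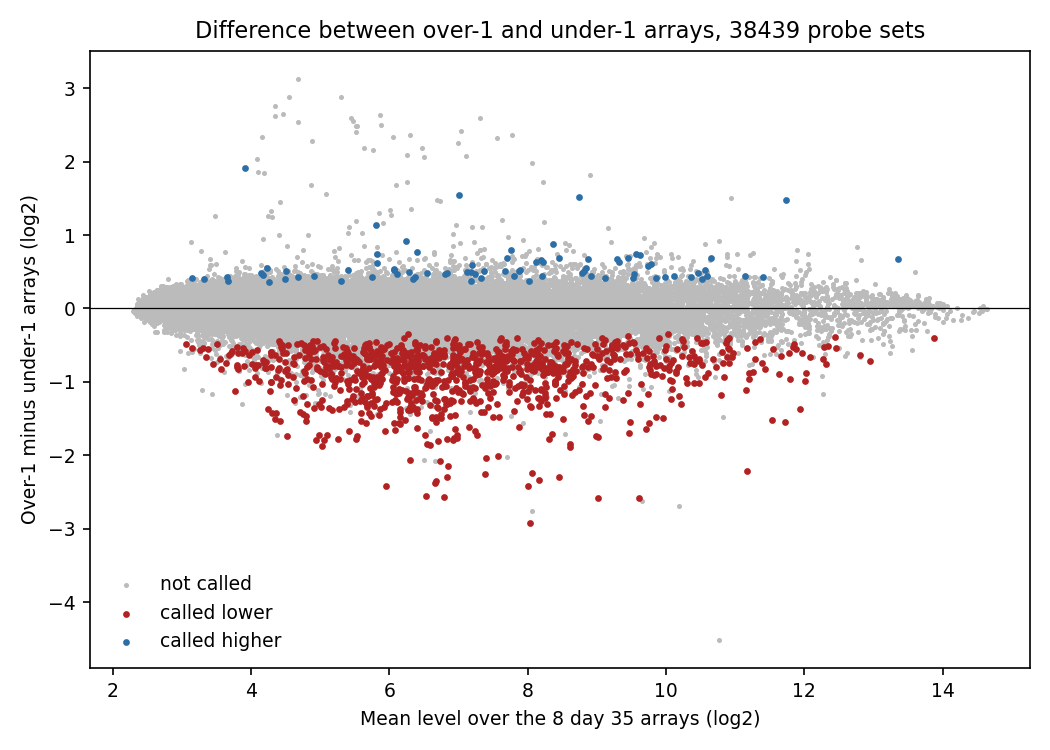
Difference between over-1 and under-1 arrays (log2, vertical axis) against the mean level over the 8 day 35 arrays (log2, horizontal axis) for each of 38439 probe sets, with the 1030 that passed as lower in red and the 80 that passed as higher in blue. Lower calls spread down to −2.92, while the higher calls reach 1.91 and the bulk of probe sets stays near 0.

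Of the 12 genes with the largest lower differences that passed, 4 are given first, with values from each array. They were picked with their values in view and stand for no group. SLC6A19, the neutral amino acid transporter of the enterocyte brush border, read 9.86 and 9.84 on the LRFI under-1 arrays and 7.33 and 7.35 on the LRFI over-1 arrays. In HRFI it read 9.12 and 9.56 against 7.32 and 7.19. The over-1 values were nearly the same in both lines, and the difference was −2.30 (SE 0.13, adjusted p = 0.000261, limma). SLC7A9, the light chain of the cystine and basic amino acid transporter, read 10.98, 11.10, 11.18 and 10.37 on the under-1 arrays and 7.96, 8.36, 8.47 and 8.50 on the over-1 arrays (−2.59, SE 0.20). ACY1, an aminoacylase that frees acetylated amino acids, read 9.86 to 10.63 against 7.18 to 8.03 (−2.58, SE 0.19). ATP2B1, a calcium pump of the plasma membrane, read 7.68 to 8.38 against 5.24 to 5.76 (−2.57, SE 0.15). In none of these probe sets did the classes overlap. They were not the brightest of their genes. Brighter probe sets of ACY1 (mean level 10.29) and ATP2B1 (10.60) gave smaller differences of −0.95 and −0.88, which also passed.

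The largest lower difference that passed for a named gene was that of STEAP4, a membrane metalloreductase. It read 9.14 and 8.65 in LRFI and 10.70 and 9.50 in HRFI on the under-1 arrays, and 4.18 and 5.90 in LRFI and 7.75 and 8.47 in HRFI on the over-1 arrays (−2.92, SE 0.50, adjusted p = 0.0185, limma). STEAP4 also varied widely elsewhere: it was 6.07 to 6.79 on the LRFI day 42 arrays, all under 1. Its call was lost when 4 of the 8 arrays were left out in turn, with differences from −3.35 to −2.39. The other 11 genes of the largest lower differences passed in all 8 such fits. Those not yet named were SERPINB6, a protease inhibitor (−2.56), SRSF5A, a splicing factor (−2.42), RBKS, ribokinase (−2.38), GZMK, a granzyme of cytotoxic lymphocytes (−2.35), GINM1 (−2.34), TARP, from the T cell receptor gamma locus (−2.30), and TMEM50B (−2.26). Brighter probe sets of SERPINB6 (mean level 10.72) and TARP (8.78) gave smaller differences of −0.80 and −1.03, which also passed.

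On the higher side, PTGDS and HPGDS, which both make prostaglandin D, were among the 12 largest differences. PTGDS read 9.49, 9.18, 9.46 and 9.86 on the over-1 arrays and 7.91, 7.51, 8.19 and 8.33 on the under-1 arrays (1.51, SE 0.14, adjusted p = 0.00144, limma). The classes did not overlap, and the day 42 arrays spanned the gap between them, at 7.92 to 9.29. HPGDS was a bright gene with a small difference, at 13.54 to 13.94 against 12.59 to 13.30 (0.68, SE 0.14). LGALS1B, a galectin, read 7.51 to 8.28 against 6.08 to 6.38 (1.54, SE 0.15). MRPS10, of the mitochondrial ribosome, read 9.62 to 10.14 against 9.01 to 9.38 (0.74, SE 0.11). FBXO22, of a ubiquitin ligase, had the largest higher difference that passed (1.91, SE 0.40), from 2.49 to 3.90 up to 4.23 to 5.76. This dim probe set also varied widely among the day 42 arrays under 1, at 2.58 to 5.43.

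The remaining higher genes were GSTT1L, a glutathione transferase (1.47), RDH11, a retinol dehydrogenase (0.92), CENPP, a centromere protein (0.80), FAAP24 of DNA repair (0.74), UBL5 (0.68), LYPLAL1 (0.68) and CHTF8 (0.68). For GSTT1L the classes overlapped, at 10.99 to 13.49 against 10.78 to 11.26. A brighter probe set of CENPP (mean level 8.37 against 7.76) went the other way, at −0.53. Further probe sets of FAAP24 (0.35) and UBL5 (0.30) and a bright one of GSTT1L (1.50) were higher. None of these further probe sets passed. The higher calls were less stable than the lower ones: PTGDS, LGALS1B and MRPS10 passed in all 8 fits that left out 1 array, RDH11 in 6, and the other 8 genes in at most 3. LGALS1B and PTGDS were not higher on the single day 42 array over 1, where they read 6.45 and 8.70 against 6.29 to 8.56 and 9.10 to 9.29 on the other HRFI day 42 arrays.

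Different probe sets of the same gene often gave different results. SLC6A19 shows it plainly. Its second probe set, at a mean level of 11.95, read 11.58, 11.48, 11.98 and 11.82 on the over-1 arrays and 12.31, 12.15, 11.86 and 12.39 on the under-1 arrays, an overlapping difference of −0.46 that did not pass. ENO1, the glycolytic enzyme enolase, read 12.41, 12.44, 12.17 and 12.08 on the under-1 arrays and 10.72, 10.57, 9.69 and 9.27 on the over-1 arrays with one probe set. With the other ENO1 probe set it read 13.18 to 13.43 against 12.76 to 13.22, so that the difference was −0.30 where the first gave −2.21. UQCRC2, a subunit of respiratory complex III, read 7.40 to 8.82 against 9.69 to 10.13 with one probe set and 11.36 to 11.84 against 12.01 to 12.19 with a brighter one. The brighter UQCRC2 probe set also passed as lower, so these differed in size and not in direction. RBKS and TMEM50B had further probe sets near 0 (−0.14 to 0.08 and −0.07 to 0.04), but these were dim, at most 4.46. SRSF5A had a far brighter probe set, at a mean level of 9.75 against 5.95, and its difference of −0.33 did not pass.

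Over the array, 7332 genes had more than 1 probe set, and 663 of them had a probe set called lower. Every probe set of the gene was called lower for 25 of the 663, or 3.77%. Where every probe set also had a level above the median, this held for 21 of 288 genes. The 1340 other probe sets of the 663 genes had a median difference of −0.08, and 36.4% of them lay above 0. The 810 of them above the median level had a median of −0.16. Of the 1340, 300 were lower with an unadjusted p under 0.05 (limma). These other probe sets were in part those that failed the test, so their smaller difference is a description. Among the 25 genes were ATP2B1, STEAP4, SERPINB6, the brush border phospholipase PLB1, the phosphate transporter SLC34A2, the intestinal cadherin CDH17 and the desmosome gene DSP, whose 3 probe sets gave −0.76, −0.79 and −0.79. For CSNK1G1, a casein kinase, and FBXO22, 1 probe set was called lower and another higher.

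Arrays on which the probe sets were not chosen allow the same reading without that selection. On HRFI day 42 replicate 4, the single day 42 array over 1, the called probe sets of these genes differed from the other HRFI day 42 arrays by a median of −0.35, and 90.6% were below 0. The other probe sets of the same genes differed by a median of 0.000823, and 49.8% were below 0. Likewise, 364 genes with more than 1 probe set had one called lower within LRFI, and on the HRFI arrays these probe sets had a median difference of −0.70 against −0.04 for the genes' other probe sets. In each contrast the called probe sets were lower where the other probe sets of the same genes centred near 0. No limit on level was set here. The other probe sets of the 663 genes were dimmer, at a median level of 6.05 against 6.80 for the called ones. Probe sets of a gene differed from each other by over 1 in 268 genes (3.66%) in the comparison of the classes and in 36 genes (0.491%) in LRFI minus HRFI at day 35.

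The spread between probe sets of a gene also stood out array by array. For each array the deviations of a gene's probe sets from the mean of the 7 day 42 arrays under 1 were taken, and their SD within the gene. The median of this SD over the 7332 genes was 0.134, 0.140, 0.131 and 0.144 on the under-1 arrays. It was 0.188, 0.184, 0.172 and 0.212 on the over-1 arrays, which thus lay above all under-1 arrays. HRFI day 42 replicate 4 stood at 0.139, within the range of the under-1 arrays, but its reference arrays were of its own age. The day 35 values also hold the difference in age, so this array cannot be set directly beside them. With deviations from the mean of each array's own line and age, which holds arrays of both classes, the values overlapped (0.119 to 0.147 on the over-1 and 0.117 to 0.137 on the under-1 arrays). By this measure HRFI day 42 replicate 4 read 0.107, among the other HRFI day 42 arrays (0.097, 0.114 and 0.102).

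**Figure D3:**
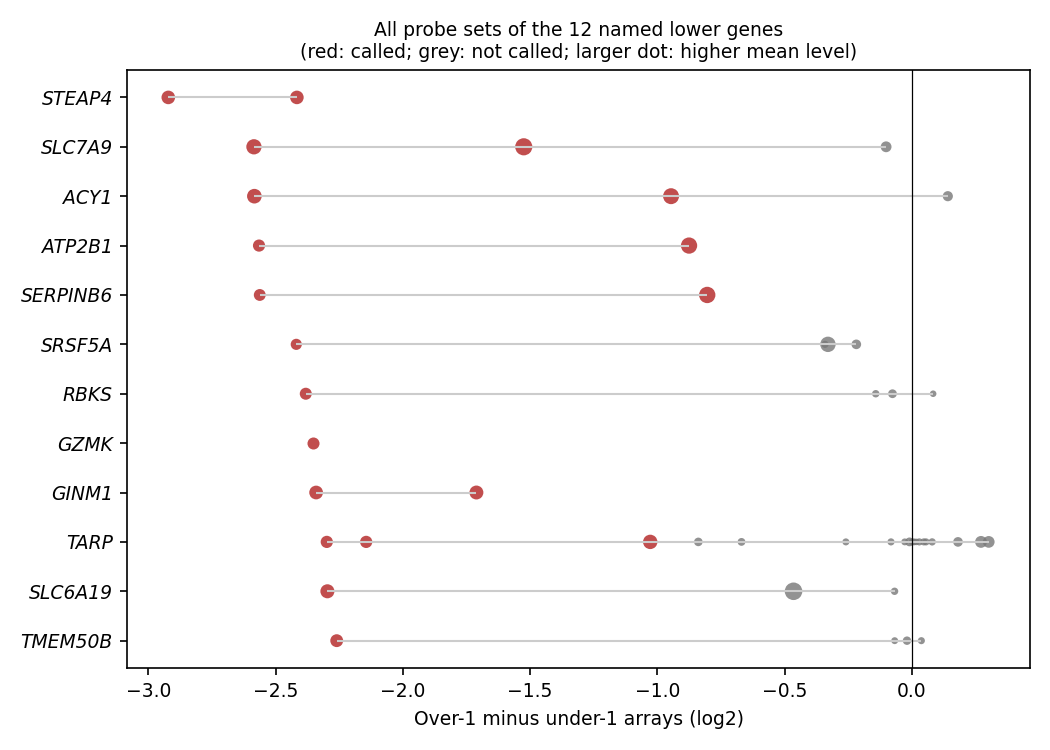
All probe sets of the 12 genes with the largest lower differences, placed by their over-1 minus under-1 difference (log2, horizontal axis), red where called and grey where not, with larger dots for higher mean levels. STEAP4, ATP2B1, SERPINB6 and GINM1 had every probe set called lower, while RBKS and TMEM50B had dim other probe sets close to 0. For SLC6A19 the bright other probe set lay at −0.46 and a dim one, at a level of 3.12, at −0.07.

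The share of probe sets called lower varied with their level and their design. With the probe sets divided into 4 equal bins of rising mean level, it was 0.156%, 1.23%, 4.11% and 5.22%. It was 1.68% for probe sets whose name ends in _at alone, 5.63% for those ending in _s_at, which match several transcripts, and 4.9% for _a_at, which match transcripts of 1 gene. Probe sets of the GgaAffx series, designed from predicted transcripts, were called lower in 3.58% and those of the Gga series in 2.12%, and in the brightest bin in 8.69% and 3.76%. These shares are counts on 1 set of arrays with no test between them. Where the probes lie within their transcripts was not analysed here, and its part in the result was not tested.

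Abundant transcripts of the controls themselves can be set beside this. The ordinary probe sets of ACTB and ACTG1, the actins, had differences of −0.49, −0.28, −0.01 and 0.30 and of −0.13 and −0.14, which are given without a test because actin sorted the arrays. EEF1A1, which encodes EF1A, differed by −0.40 (SE 0.09, adjusted p = 0.0440, limma) with its bright probe set. Its other probe set, dim at a mean level of 3.62, differed by 0.18 and did not pass. The 2 GAPDH probe sets lay at 0.006 and 0.018.

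Within the lines the pattern was alike for the lower probe sets and less so for the higher ones. Within LRFI 664 probe sets passed (1.73%), 549 lower (1.43%) and 115 higher (0.299%). Within HRFI 120 probe sets passed (0.312%), 115 lower (0.299%) and 5 higher (0.013%). The lines share no arrays, but their tests use a shared estimate of the spread, so the calls are not independent. In both lines 86 lower probe sets passed, which is 15.7% of the LRFI calls and 74.8% of the HRFI calls. Of the 549 called lower in LRFI, 511 (93.1%) were lower in HRFI too, against 44.7% of all probe sets. Of the 115 called higher in LRFI, 79 (68.7%) were higher in HRFI, against 55.3% of all. The calls again depended on single arrays: without any 1 LRFI array between 54 and 270 probe sets passed in LRFI, and in HRFI the count was 26 without replicate 1, 31 without replicate 3, 37 without replicate 4 and 244 without replicate 2. Across all 38439 probe sets, which are not independent, the differences within LRFI and within HRFI had a Pearson correlation of 0.41.

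Within LRFI the lower genes with the smallest p were PDZK1P1 (−2.38, SE 0.15), SLC6A19 (−2.51), ATP2B1 (−2.77) and ASAH2, the neutral ceramidase of the brush border (−2.62). PDZK1P1 is named after a brush border scaffold protein. Its values were 10.02 and 10.10 against 7.69 and 7.68, and in HRFI 9.10 and 8.999 against 7.83 and 7.45. The higher genes were FSTL4, WFDC2, an epithelial protease inhibitor (1.54, SE 0.15), GPX2, the gastrointestinal glutathione peroxidase (1.61, SE 0.17), and FABP6, the bile acid binding protein of enterocytes (2.41, SE 0.26). FABP6 read 7.11 and 7.78 on the LRFI over-1 arrays against 5.11 and 4.95, and 5.13 to 5.71 on the 4 HRFI arrays. Its HRFI difference of 0.17 did not pass, and nor did its interaction. Without LRFI replicate 2 the FABP6 call was lost (2.33), and WFDC2 (1.53 and 1.55) and GPX2 (1.66 and 1.55) did not pass without LRFI replicate 3 or 4.

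Within HRFI the lower genes were ENO1 (−2.64, SE 0.16), UQCRC2 (−2.15, SE 0.14), MICU2, a regulator of mitochondrial calcium uptake (−2.12, SE 0.12), and SPG21 (−2.01, SE 0.12). SPG21 read 9.14 and 9.22 on the HRFI under-1 arrays and 7.26 and 7.08 on the over-1 arrays, close to the LRFI values of 9.21 and 9.21 against 7.68 and 7.64. The higher genes were NEIL3, a DNA glycosylase, LGALS1B (1.76), FBXO22 (2.89) and PTGDS (1.40). NEIL3 read 5.90 and 6.11 on the HRFI over-1 arrays and 3.41 to 3.81 on the other 6 day 35 arrays (2.37, SE 0.16). At day 42 it was 4.82 and 6.40 on HRFI replicates 1 and 3 and 4.87 and 4.61 on LRFI replicates 2 and 3, all under 1, so that NEIL3 also varied among arrays that the sorting did not separate. Of the higher genes, only NEIL3 passed in all 8 fits that left out 1 array. LGALS1B passed in 5, with differences from 1.49 to 2.04, FBXO22 in 3, from 2.58 to 3.19, and PTGDS in 1, from 1.20 to 1.60.

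The interaction of line and class was called for 1 probe set (0.0026%), and 2311 (6.01%) had an unadjusted p under 0.05. It was FSTL4, a secreted follistatin-like protein. FSTL4 read 7.08 and 7.07 on the LRFI over-1 arrays against 4.66 and 4.68, and 4.50 and 4.09 on the HRFI over-1 arrays against 5.04 and 5.08. The interaction was 3.17 (SE 0.22, adjusted p = 0.0154, limma), and it passed in 2 of the 8 fits that left out 1 array, with values from 2.96 to 3.37. LRFI day 42 replicate 4, an array under 1, read 6.32. NEIL3 (−2.22), SHQ1 (−2.05), MME, a brush border peptidase (−1.64), and SLC37A4 (−1.96) came next on the negative side with adjusted p from 0.142 to 0.253, and MICU2 (1.38), TBC1D1 (1.50) and TRIQK (1.83) on the positive side with 0.253, so none of them passed. The count of interaction calls was 51 without HRFI replicate 2, 4 without HRFI replicate 3 and 0 without LRFI replicate 2 or 3.

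HRFI day 42 replicate 4, which the sorting did not use, was set against the other 3 HRFI day 42 arrays. With 1 array on one side, its spread was taken to be that of the other arrays. Only 3 probe sets passed (0.0078%), 1 higher (0.0026%) and 2 lower (0.0052%), and 1513 (3.94%) had an unadjusted p under 0.05. Of the 1030 probe sets called lower at day 35, 928 (90.1%) were lower on this array, with a median of −0.35, against 50% of all probe sets. Of the 80 called higher at day 35, 43 (53.8%) were higher. The share was far from that of all probe sets for the lower calls and close to it for the higher ones. Across all 38439 probe sets the day 35 difference and that of this array had a Pearson correlation of 0.25. The 2 comparisons share no arrays.

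ENO1 read 10.60 on this array against 11.91 to 12.40 on the other HRFI day 42 arrays, and ACY1 read 8.71 against 9.99 to 10.32. Their differences of −1.56 and −1.44 did not pass (adjusted p = 0.124 and 0.251, limma), nor did those of GSTA4, a glutathione transferase (−1.60), and EXOSC2, of the RNA exosome (−1.11). STEAP4 went the other way, at 10.38 against 7.29 to 10.43 (1.44). The named gene that passed was CYP2C23b, a cytochrome P450, at 11.43 against 6.17 to 6.49 (5.10, SE 0.21). CYP2C23b also read 11.74 on HRFI day 35 replicate 2 and 4.44 to 6.83 on the other 14 arrays. Both arrays with high CYP2C23b were thus over 1 for actin, while the other 3 arrays over 1 and all 11 arrays under 1 were not high. On the higher side GUCY1A3 (0.80), MYO6 (0.94) and BAG3 (0.70) came next without passing.

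**Figure D4:**
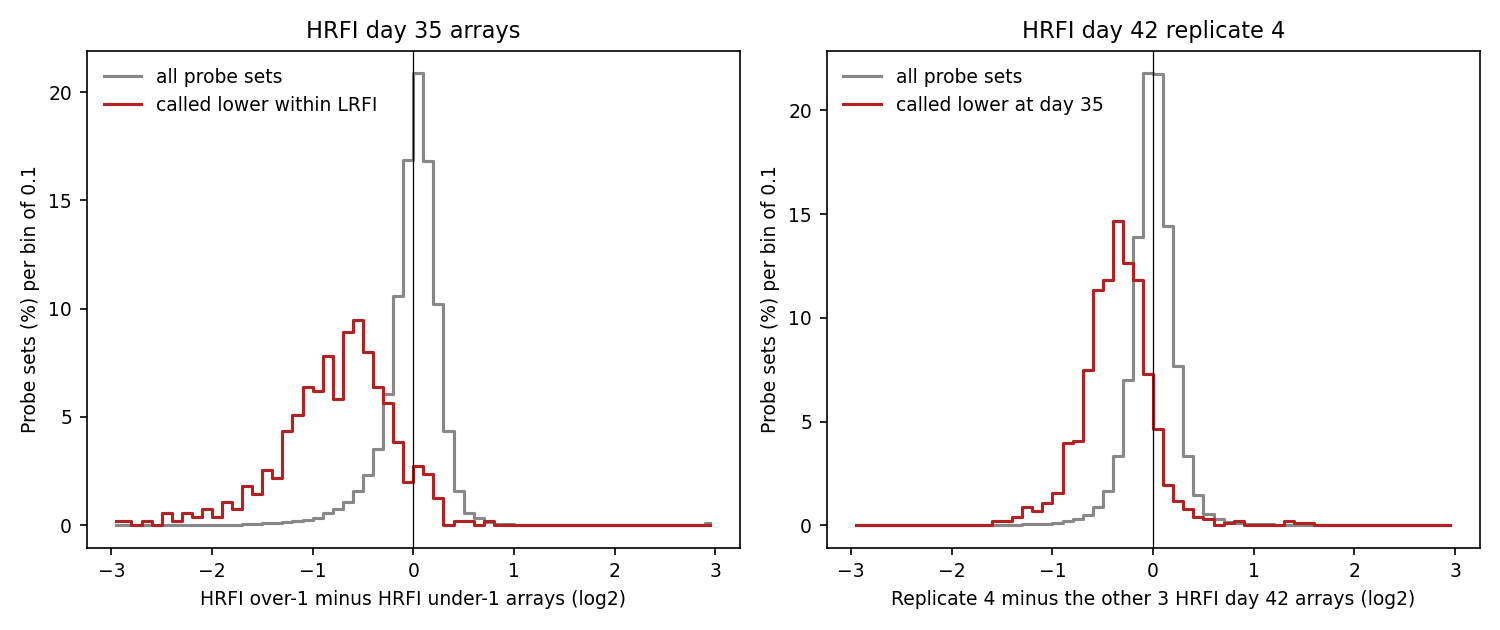
Distributions of differences (log2, horizontal axes, percent of probe sets per bin of 0.1 on the vertical axes) on arrays that did not choose the probe sets, in red for the 549 called lower within LRFI, seen on the HRFI day 35 arrays, and for the 1030 called lower at day 35, seen on HRFI day 42 replicate 4, with all probe sets in grey. The red curves lie to the left of the grey ones, with medians of −0.68 and −0.35.

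Gene groups were described with the brightest probe set of each gene, over 36 lists of cell types and processes. Of 13009 genes, 392 (3.01%) were called lower and 38 (0.292%) higher by that probe set, 6976 lay above 0 and the median was 0.02. A called lower member was found in 17 lists and a called higher member in 1. At a share of 3.01% of all genes, many lists would hold a called lower member by that share alone. These counts are thus a description, and the called members of each list below stand beside the same share. For 6 lists the array means of the classes did not overlap, 2 of them higher and 4 lower on the over-1 arrays. Among single probe sets, 6.16% lay fully higher and 5.8% fully lower on the over-1 arrays, so some lists apart in this way are the background here, and nothing is read from their number. Fewer cells of a type and less RNA per cell cannot be told apart in tissue RNA such as this.

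Both lists with higher means were of the mitochondrion. Genes of the mitochondrial ribosome, which makes the proteins encoded by mitochondrial DNA, had means of 9.51 to 9.66 on the over-1 arrays and 9.31 to 9.43 on the under-1 arrays. Of 52 members 44 lay above 0 with a median of 0.26, but only MRPS10 and MRPL43 (0.58, SE 0.11) passed as higher and none as lower. MRPL43 passed in 2 of the 8 fits that left out 1 array (0.48 to 0.65). Oxidative phosphorylation genes had means of 11.35 to 11.52 against 11.21 to 11.28, with 51 of 58 above 0 and a median of 0.18. None passed as higher, and the 3 that passed were lower: NDUFV1 of complex I (−0.66, SE 0.09), and UQCRC2 (−0.53) and UQCRC1 (−0.39) of complex III. NDUFV1 read 11.15 to 11.37 on the under-1 arrays and 10.42 to 10.75 on the over-1 arrays, against the trend of its list. Its call stayed in all 8 fits that left out 1 array, that of UQCRC2 in 3 (−0.59 to −0.48) and that of UQCRC1 in 0 (−0.41 to −0.35). On HRFI day 42 replicate 4 the list medians were 0.0019 and 0.035, near that of all genes. Such day 35 medians were not particular to the mitochondrion. The antioxidant and redox list had 0.18 in LRFI and 0.17 in HRFI, against 0.19 and 0.13 for oxidative phosphorylation. The array means of the antioxidant list overlapped between the classes.

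Lists with lower means were splicing, translation factors, autophagy and lysosome, and nutrient transporters. Spliceosome genes had means of 9.52 to 9.83 against 9.85 to 9.94 and a median of −0.15, with 25 of 37 below 0 and none called. Translation factors had means of 10.56 to 10.76 against 10.78 to 10.86 and 4 of 37 called lower, among them EIF2S3, a subunit of the factor that brings the initiator tRNA (−0.86, SE 0.11), EIF3J (−0.63) and EIF3L (−0.40). EIF2S3 and EIF3J passed in all 8 fits that left out 1 array and EIF3L in 0 (−0.43 to −0.36). EIF2S3 read 10.60 to 11.004 on the over-1 arrays and 11.59 to 11.80 on the under-1 arrays. Autophagy and lysosome genes had means of 8.99 to 9.12 against 9.20 to 9.28 and 1 of 28 called, LAMP2 of the lysosomal membrane (−1.37, SE 0.11), at 5.94 to 6.30 against 7.39 to 7.60.

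Nutrient transporters had means of 8.22 to 8.49 on the over-1 arrays against 8.51 to 8.73, with 15 of 23 below 0 and a median of −0.08. SLC7A9 by its brightest probe set (−1.52, SE 0.19) and the glucose transporter SLC2A2 (−1.02, SE 0.22) were called lower. SLC2A2 read 6.90, 6.40, 7.42 and 6.87 on the over-1 arrays and 8.28, 7.42, 7.81 and 8.16 on the under-1 arrays, and passed in 1 of the 8 fits that left out 1 array (−1.16 to −0.81). With any probe set of the gene counted, 7 of the 23 had one called lower, against 830 of all 13009 genes (6.38%). The same count was 6 of 22 for brush border genes, 5 of 22 for endoplasmic reticulum chaperones and 6 of 37 for spliceosome genes. It was 0 of 40 for proliferation genes. Lower calls were more frequent among bright probe sets, so the share of all genes is not matched to these lists and nothing is read from the counts. Brush border genes had overlapping means (10.94 to 11.26 against 11.16 to 11.53), with a median of −0.26 in LRFI and −0.01 in HRFI. Of 22 members 3 were called, EZR, the ezrin that ties actin to microvilli (−1.01, SE 0.12), CDHR5, a cadherin of microvilli (−0.91), and SLC2A2. EZR read 9.83 to 10.12 against 10.75 to 11.22 and passed in all 8 fits that left out 1 array, while CDHR5 passed in 2 (−1.03 to −0.71).

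**Figure D5:**
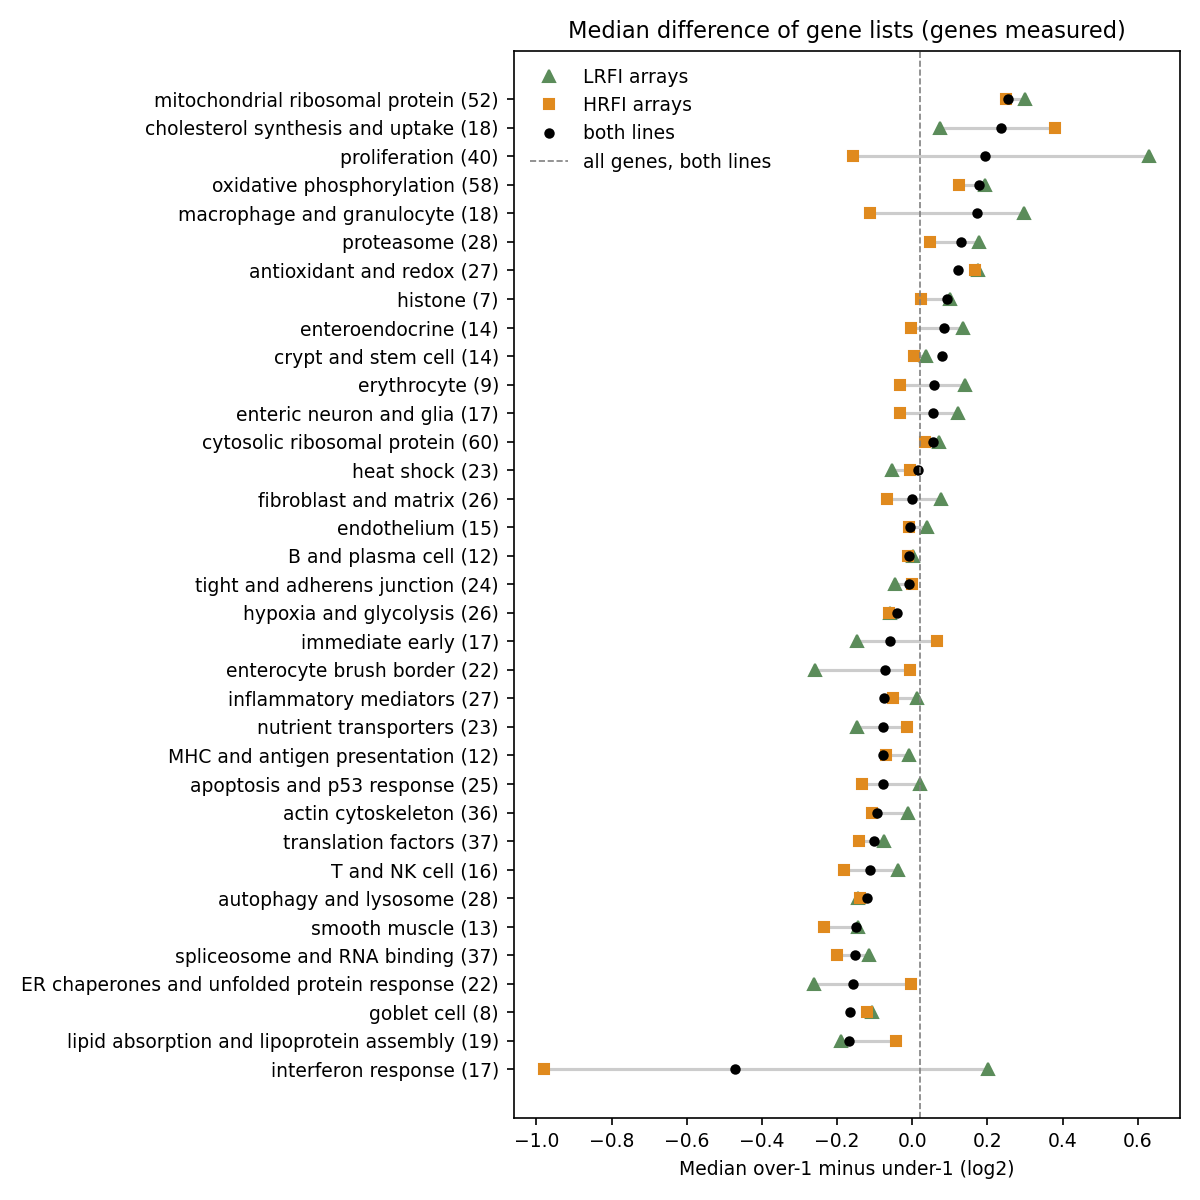
Median difference of over-1 minus under-1 arrays (log2, horizontal axis) over the measured genes of each list (number in parentheses), for both lines together, for LRFI and for HRFI, with the median of all genes as a dashed line. The exocrine pancreas list, at 2.42 through 1 array, is left out. Lists of the mitochondrion lie to the right in both lines, as do others such as antioxidant and redox genes. Proliferation and interferon genes lie on opposite sides in the lines.

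Single members of several other lists were called lower while the array means of their lists overlapped. Among markers of other cell types these were OLFM4 of crypts (−1.84, SE 0.33), the mucin glycosyltransferase GALNT12 of goblet cells (−1.54, SE 0.27), PECAM1 of endothelium (−1.72, SE 0.15), CD3E of T cells (−0.80, SE 0.15) and IRF4 of the B and plasma cell list (−0.86, SE 0.14). They were 1 of 14, 1 of 8, 1 of 15, 1 of 16 and 1 of 12 measured markers. Over all genes 3.01% were called lower, so a single call in a list of this size is no result about its cell type. PECAM1 read 7.24 to 7.52 on the under-1 arrays and 5.19 to 5.96 on the over-1 arrays, while the endothelial list had a median of −0.0048. OLFM4 and GALNT12 each passed in 5 of the 8 fits that left out 1 array (−2.13 to −1.51 and −1.68 to −1.23) and CD3E in 3 (−0.93 to −0.67). IRF4 passed in 6 and PECAM1 in all 8.

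Among stress and folding genes, HERPUD1 (−1.13, SE 0.13), PDIA6 (−0.81, SE 0.12) and CRELD2 (−0.87, SE 0.17) of the endoplasmic reticulum were called lower, 3 of 22. PDIA6, a disulfide isomerase, read 9.18 to 9.77 on the over-1 arrays and 9.95 to 10.75 on the under-1 arrays. The co-chaperones DNAJB6 (−0.93, SE 0.09) and DNAJA2 (−0.51, SE 0.09) were 2 of 23 heat shock genes called. HERPUD1, PDIA6 and DNAJB6 passed in all 8 fits that left out 1 array, and CRELD2 (−1.04 to −0.73) and DNAJA2 (−0.54 to −0.46) in 2. The heat shock median of 0.016 turned to −0.0039 when each array was centred on its median. Other single calls were PSMD12 of 28 proteasome genes (−0.52), CASP18 of 25 apoptosis genes (−0.81), ABCG8 of 19 lipid genes (−0.61), MARVELD3 of 24 junction genes (−0.64), and ARPC1B (−0.79), ACTR3 (−0.61) and EZR of 36 genes of the actin cytoskeleton. Of these, EZR passed in all 8 fits that left out 1 array, ABCG8 in 6, ARPC1B in 4, ACTR3 and CASP18 in 2, MARVELD3 in 1 and PSMD12 in 0 (−0.59 to −0.45). With 3.01% of all genes called lower, the single calls here are no result about their lists. Cytosolic ribosomal protein genes, the brightest list, had 54 of 60 members above 0 but a median of only 0.054, and none was called.

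Proliferation, interferon and pancreatic genes differed most between lines or arrays. Proliferation genes had means of 7.71 and 7.60 on the LRFI over-1 arrays against 7.04 and 7.10, and of 7.07 and 6.89 against 6.95 and 7.31 in HRFI. Their median was 0.63 in LRFI, where 5 of 40 were called higher (against 0.546% of all genes), and −0.16 in HRFI, where none was called (against 0.0231% called higher). No member had a called interaction. BIRC5, survivin, read 9.53 and 9.15 against 7.90 and 7.91 in LRFI, and 8.85 and 8.42 against 7.99 and 8.58 in HRFI. Interferon response genes had means of 9.14 and 8.37 against 8.77 and 8.18 in LRFI and 7.96 and 7.42 against 8.51 and 9.31 in HRFI, with none of 17 called. Pancreatic enzyme genes had a median of 2.42, carried by HRFI replicate 3, and none of 16 was called.

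With each class holding 2 arrays of each line, adding the class to the model leaves the estimated difference between the lines at day 35 as it is and changes its spread. With line alone in the model no probe set passed with limma (0%), and 1773 (4.61%) had an unadjusted p under 0.05. With the class added, again no probe set passed, and 2770 (7.21%) had an unadjusted p under 0.05.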

How the data were processed

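The deposited log2 values came from Partek 6.5 and RMA, per the submitters' processing notes. RMA subtracts background, puts all arrays on 1 distribution by quantiles and fits 1 value per probe set. Per the labels, Trizol total RNA was made into biotin-labelled cRNA. Values were used as deposited. Array medians were 5.05 to 5.11, and single values 2.10 to 14.75. Arrays give no read depth, so their number limits the precision.

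Tests ran on 38439 probe sets, without the 96 controls. Of these, 27168 had 1 gene symbol, 177 several and 11094 none. Entrez identifiers matched 26853 to RefSeq (names only). Tests used limma 3.58.1 in R 4.3.3 with eBayes: line and class over the 8 day 35 arrays, 1 mean per line and class for the within-line differences and the interaction (a shared spread), and the single array over 1 at day 42. Adjustment was by Benjamini-Hochberg over all probe sets, at a threshold of 0.05.

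Named genes were, among calls with 1 symbol and no clone or locus name, the 12 largest differences in each direction. The rule took, for the within-line differences, the interaction and the single array, the 4 of smallest p per direction, and from each list up to 3 members. The other genes shown with their probe sets, and the members of the 25, were picked with their values in view. The members and the 37 lists (1 without a measured gene) were chosen with earlier results of these data known. Alternatives were a replicate block, trend and robust variances, probe sets above the median level and the actin difference as a covariate in place of the class. Further ones were centring on the array median, all 16 arrays, each array left out and the mean of a gene's probe sets. The line difference with class, the day 42 reference for the spread between probe sets and the shares by design and level were added after seeing the data. The fits were tested on simulated data. Same-numbered arrays of the lines had correlations of 0.31, −0.11, 0.25 and −0.16 in their deviations from the line means. Replicates 1 and 3 were of the same class in both lines, and replicates 2 and 4 were not. Within the under-1 class, replicate 1 of both lines gave 0.31 and the differently numbered pairs 0.05 to 0.38. Within the over-1 class, replicate 3 of both lines gave 0.25 and the differently numbered pairs 0.07 to 0.29. Same-numbered arrays of a class were thus within the range of the others. Each class held only 1 same-numbered pair, so whether the numbers pair the arrays cannot be told. At day 42, where only HRFI replicate 4 was over 1, same-numbered arrays had correlations of −0.05, 0.02, −0.05 and 0.06. Those of differently numbered arrays were −0.11 to 0.13.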

Additional observations from a re-analysis of the deposited data

Results flagged for a closer look

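FSTL4 differed between the lines by a test of the difference itself (limma interaction 3.17): the over-1 minus under-1 difference was 2.41 in LRFI and −0.76 in HRFI, of which the second did not pass. In groups of 4 arrays, 1 array stood far from the other 3 in 6 of 72 groups of list means at day 35 and in 1 of 12 groups of control differences. Chance gives such a gap in about 1 in 20 groups. On LRFI day 35 replicate 2 the apoptosis list had a mean of 8.60 and the hypoxia and glycolysis list one of 9.43. On LRFI day 35 replicate 1 the lipid absorption list stood at 10.57. On HRFI day 35 replicate 3 the pancreatic list stood at 12.53 and the spliceosome list at 9.52. On HRFI day 35 replicate 4 the macrophage and granulocyte list stood at 8.50. The GAPDH 3′ minus 5′ difference was 0.11 on HRFI day 42 replicate 1.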

How the results depend on the processing

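The class comparison (1110 calls) gave 1168 calls with trend and robust variances, 1054 above the median level, 1168 after centring and 1656 with all 16 arrays. With the actin difference itself in the model in place of the class, 634 probe sets followed it, and 578 of these were among the 1110. Leaving out 1 array gave 442 to 1414 calls, 54 to 685 within LRFI, 26 to 244 within HRFI, 0 to 51 for the interaction and 3 to 6 for the single day 42 array. The interaction had 3 calls with trend and robust variances. With a replicate block there were 65 calls in the class comparison, 18 within LRFI, 7 within HRFI and 7 for the interaction, of which 55, 7, 2 and 0 were among the calls without it. FSTL4 is thus not among the 7. Replicates 1 and 3 were each of the same class in both lines. With the block, the difference of the class comparison therefore rested on replicates 2 and 4 alone. Within a class at day 35, the correlation of the same-numbered pair lay within the range of the differently numbered ones. With 1 such pair per class, whether the numbers pair the day 35 arrays cannot be told from those arrays. At day 42 same-numbered arrays were no more alike than differently numbered ones (−0.05 to 0.06 against −0.11 to 0.13). Under the block, values of 3 genes that did not pass in the class comparison changed sign: GIP (0.043), PLA2G1B (−0.18) and HEMGN (−0.11). The cause of these changes was not tested. Dim probe sets limit what can be seen: in the dimmest of 4 bins of level 0.156% were called lower.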
